A study of Mus musculus with 8 samples.

Results

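The BCL2 family holds the proteins that decide whether the outer mitochondrial membrane is opened during apoptosis. Its expression was examined here in mouse hearts 1 day after myocardial infarction (MI). The members were taken by gene symbol. They were the pro-survival genes Bcl2, Bcl2l1 and Mcl1, the pore formers Bax and Bak1, the BH3-only genes Bid, Bbc3, Pmaip1 and Bcl2l11, and the mitophagy receptor gene Bnip3l. Of the 10 members, 9 had a probe set assigned to them alone among the 19938 genes tested. Bax had none and was not analysed here.

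In the hearts of both genotypes, Bcl2l1 and Bak1 rose after MI. In WT hearts Mcl1 rose as well and Bcl2 fell. In KO hearts Bid and Pmaip1 rose as well and Bcl2l11 fell. Over all genes, 28.1% passed the test in WT and 20.8% in KO. Only the rise of Bcl2l1 in WT held under all 19 alternative settings described below. Each of the other calls was lost under some of them. No member passed the test for a difference between genotypes or for a difference between the MI responses of WT and KO hearts. The lists of calls in WT and KO hearts therefore cannot be read as a difference between them.

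The study compared wild-type (WT) mice with mice lacking MAFbx (KO), also called atrogin-1, the muscle ubiquitin ligase encoded by Fbxo32. Each genotype was studied after a sham operation or after permanent ligation of the left coronary artery. Total RNA of the heart was taken 1 day after ligation, while the sample labels give no time for the sham hearts. This gave 4 groups, WT and KO after sham and WT and KO after MI, with 2 Affymetrix Mouse Gene ST arrays each and 8 arrays in all. Strain, age and the deleted part of the gene are not in the labels. Nothing says that both arrays of a group are separate animals, so a p-value here reflects only how far these samples spread, and that spread may be technical. The part of the heart that was taken is not given either, so the RNA may mix infarcted and surviving tissue in unknown shares. In whole tissue, fewer cells of a type and less RNA per cell cannot be told apart.

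The signals were log2 values from the RMA procedure, which puts all arrays on a common intensity scale. A gene called higher or lower had an adjusted p under 0.05 in limma (moderated linear model, Benjamini-Hochberg adjustment over all 19938 genes), and a fold is 2 to the power of the log2 difference. With 2 arrays a group, the number of arrays limits the precision. Fbxo32 was lower in KO hearts by 14.4-fold in sham (log2 difference -3.85, limma adjusted p = 3.77e-05) and by 7.90-fold after MI (-2.98, adjusted p = 0.00041), so the genotype labels held on every array. The mean log2 signal of 9 cardiomyocyte markers lay between 12.92 and 13.30 on all arrays, so the defining transcripts of heart muscle were high on each. The first principal component (73.9% of the variance) separated MI from sham, while the second (8.56%) set KO sham 1 (score 21.2) apart from KO sham 2 (-15.3) and WT MI 2 (20.2) apart from WT MI 1 (-0.60). The scores of KO sham 1 and WT MI 2 were therefore close to each other although the arrays belong to different groups.

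BCL2 family proteins act by binding one another. BAX and BAK1 can assemble into pores that release cytochrome c and so start the caspase cascade, pro-survival proteins such as BCL2, BCL-XL (from Bcl2l1) and MCL1 hold them in check, and BH3-only proteins tip the balance towards death by binding either side. Loss of cardiomyocytes through this pathway and through necrosis is a known feature of the first day of infarction, and transcripts are only one layer of its control, since MCL1 and BIM (from Bcl2l11) are also regulated by phosphorylation and by degradation.

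The 250 bases upstream of annotated transcription starts were read from RefSeq windows on the mouse build GRCm38.p6 and searched on both strands for short sequences bound by factors known to act on family genes. The 4 windows shown belong to the members that fell, Bcl2 and Bcl2l11, and to the members that rose in both genotypes, Bcl2l1 and Bak1. Each is printed 5′ to 3′ on the gene's own strand and ends at the base before the start. Capitals mark a motif match. For Bcl2l11 and Bcl2l1, which have several annotated starts, the most upstream is shown.
Bcl2: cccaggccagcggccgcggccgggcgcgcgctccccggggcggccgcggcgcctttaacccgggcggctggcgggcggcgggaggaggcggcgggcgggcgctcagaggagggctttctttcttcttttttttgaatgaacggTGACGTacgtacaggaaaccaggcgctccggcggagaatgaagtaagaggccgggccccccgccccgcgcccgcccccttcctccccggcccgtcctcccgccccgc
Bcl2l11: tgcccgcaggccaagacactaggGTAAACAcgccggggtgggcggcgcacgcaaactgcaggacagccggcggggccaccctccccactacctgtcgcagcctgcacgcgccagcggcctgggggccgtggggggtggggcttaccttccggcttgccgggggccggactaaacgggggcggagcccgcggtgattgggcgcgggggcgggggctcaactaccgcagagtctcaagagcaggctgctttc
Bcl2l1: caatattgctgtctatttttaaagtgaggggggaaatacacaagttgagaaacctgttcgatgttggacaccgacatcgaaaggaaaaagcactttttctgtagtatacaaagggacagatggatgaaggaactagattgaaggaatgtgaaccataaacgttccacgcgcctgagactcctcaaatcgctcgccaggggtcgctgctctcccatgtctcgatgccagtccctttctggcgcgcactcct
Bak1: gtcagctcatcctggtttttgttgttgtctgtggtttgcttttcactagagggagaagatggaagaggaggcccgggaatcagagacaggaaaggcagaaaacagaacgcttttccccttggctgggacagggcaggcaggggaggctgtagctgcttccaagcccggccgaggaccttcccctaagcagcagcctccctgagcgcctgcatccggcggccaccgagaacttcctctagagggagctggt

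The Bcl2 window (chr1:106714291-106714540, minus strand) had a GC content of 74.8% and held the CRE core TGACGT, recognised by CREB and ATF proteins, from 107 to 102 bases before the start. The Bcl2l11 window (chr2:128125788-128126037, plus strand) had a GC content of 72.0% and held the forkhead motif GTAAACA, recognised by FOXO proteins, from 227 to 221 bases before the start. The windows of Bcl2l1 (chr2:152831729-152831978, minus strand, GC 47.6%) and Bak1 (chr17:27028628-27028877, minus strand, GC 58.4%) held no match. Of the 4 windows shown, those of the members that fell were the richer in G and C. Among the other members, GC content was 64.4% for Mcl1, 63.6% for Bid and 54.0% for Bax. The Bbc3 windows had 72.4% to 81.6%, so the 4 windows do not show a GC split across the members. The median was 52.4% over all 32851 windows of the table. Among those windows, 6.47% held TGACGT, 3.17% GTAAACA, 7.02% the STAT motif TTCNNNGAA, 16.6% the HIF core ACGTG (which can overlap TGACGT) and 3.90% the NF-kB motif, and a match is only a description. In all, 8 members had 13 windows in the table. The other matches were the NF-kB motif in windows of Bcl2l1 and Bbc3 and the HIF core in windows of Bbc3 and Bax. The forkhead motif GTAAACA also lay in a Bbc3 window, and Bbc3 passed the test in neither genotype. Of the member windows, 0 held the STAT motif. The absence of a match says only that these letters are not in the window.

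**Figure D1:**
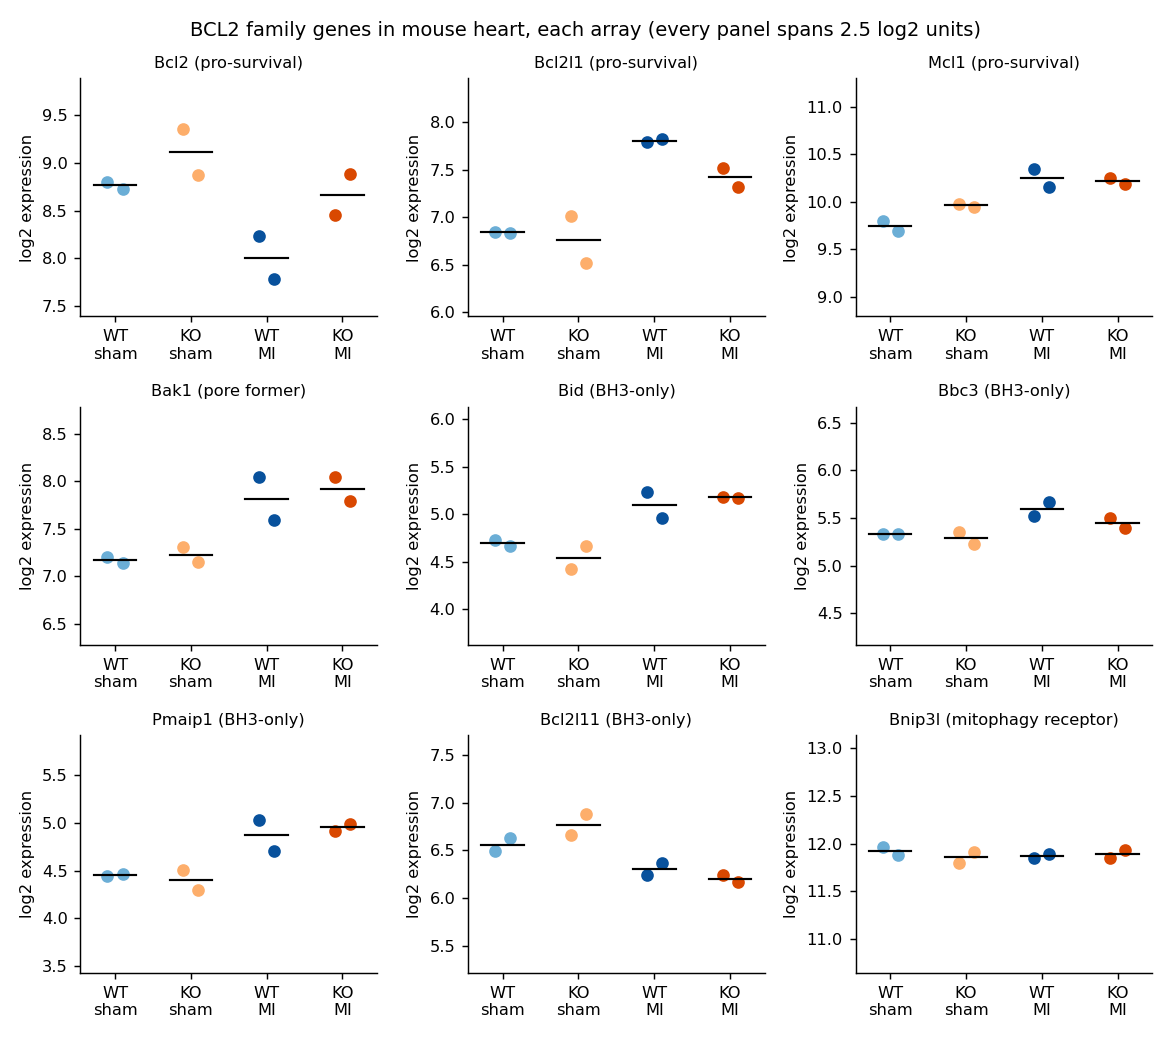
Log2 signal of the 9 measured members on each of the 8 arrays, 1 panel per gene, with groups on the x axis, points for arrays and bars for group means. All 4 MI arrays lie above all 4 sham arrays for Bcl2l1, Mcl1, Bak1, Bid, Bbc3 and Pmaip1 and below them for Bcl2l11. How many of all genes separate in this way was not counted. For MI averaged over genotypes, 35.7% of all genes passed the test, so such separation is not shown to be particular to the members.

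MI against sham asks how infarction altered the members within each genotype. In WT hearts 3 of the 9 measured members rose and 1 fell, where 28.1% of all genes passed the test (12.3% higher and 15.8% lower). In KO hearts 4 rose and 1 fell, where 20.8% of all genes passed (10.5% higher and 10.3% lower). The median log2 difference of the members was 0.40 in WT and 0.26 in KO, beside 0.04 and 0.01 over all genes. With 9 members, such counts differ from those shares by a few genes. Averaged over the genotypes in a model with 1 MI term and 1 genotype term, 5 members rose and 2 fell, where 35.7% of all genes passed (16.7% higher and 19.0% lower).

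Of the pro-survival genes, Bcl2 had log2 signals of 8.80 and 8.73 in WT sham and 8.23 and 7.78 in WT MI, and of 9.36 and 8.87 in KO sham and 8.45 and 8.88 in KO MI. Both WT MI arrays were below both WT sham arrays, whereas the KO ranges overlapped, with KO MI 2 level with KO sham 2. Bcl2, the founding survival gene of the family, fell by 0.76 in WT (SE 0.21, 1.69-fold, limma adjusted p = 0.0235), while its difference in KO was -0.45 (adjusted p = 0.178). The WT call was lost without WT sham 1 (adjusted p = 0.109), WT sham 2 (0.0824) or WT MI 2 (0.167), with a range of 0.00781 to 0.167 over all alternatives, and it was also lost with all probe sets tested (0.0727) and after cyclic loess (0.0849). Averaged over genotypes Bcl2 fell by 0.61 (1.52-fold, limma adjusted p = 0.00948), and this call was lost only when KO sham 1 and WT MI 2 were left out together (-0.37, adjusted p = 0.0676, with a range of 0.00325 to 0.0676).

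Bcl2l1, which encodes BCL-XL, a mitochondrial survival protein and binding partner of BAX and BAK1, had the largest MI difference of the members in WT and the second largest, after Bak1, in KO. Its log2 signals were 6.85 and 6.83 in WT sham against 7.79 and 7.82 in WT MI, and 7.01 and 6.52 in KO sham against 7.52 and 7.32 in KO MI. All MI arrays were above all sham arrays, and the highest were those of WT MI. It rose 1.96-fold in WT (0.97, SE 0.17, limma adjusted p = 0.00195), past the threshold under all 19 alternatives, with adjusted p from 0.000501 to 0.0168. In KO it rose 1.58-fold (0.66, adjusted p = 0.0207), a call lost without KO sham 2 (0.0833), KO MI 1 (0.141) or KO MI 2 (0.0558), with the compared groups alone (0.0546) and with all probe sets tested (0.0581), over a range of 0.00437 to 0.141. Averaged over genotypes the rise was 1.76-fold (limma adjusted p = 0.000456).

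Mcl1, a short-lived survival protein that cardiomyocytes depend on, had log2 signals of 9.80 and 9.69 in WT sham, 10.34 and 10.16 in WT MI, 9.98 and 9.95 in KO sham and 10.25 and 10.19 in KO MI. Again every MI array was above every sham array, and the KO sham arrays were above the WT sham arrays. Mcl1 rose 1.42-fold in WT (0.51, SE 0.12, limma adjusted p = 0.0126), and its difference in KO was 0.26 (adjusted p = 0.183). The WT call was lost without WT sham 1 (0.0532), WT sham 2 (0.108) or WT MI 1 (0.0694) and after median centring (0.0948), over a range of 0.00257 to 0.108. Averaged over genotypes Mcl1 rose 1.30-fold (limma adjusted p = 0.00815).

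Of the pore formers, Bak1, which encodes the BAK protein that sits in the outer mitochondrial membrane, had log2 signals of 7.20 and 7.14 in WT sham, 8.04 and 7.59 in WT MI, 7.31 and 7.15 in KO sham and 8.05 and 7.79 in KO MI. All MI arrays were above all sham arrays, and WT MI 1 and KO MI 1 were the highest. Bak1 rose 1.56-fold in WT (0.64, SE 0.17, limma adjusted p = 0.0178) and 1.62-fold in KO (0.69, SE 0.17, adjusted p = 0.0169). The WT call was lost without WT sham 1 (0.0712), WT sham 2 (0.0995) or WT MI 1 (0.107), after median centring (0.0579) and with all probe sets tested (0.0527), over a range of 0.00637 to 0.107. The KO call was lost without KO sham 2 (0.0764) or KO MI 1 (0.13) and with all probe sets tested (0.051), over a range of 0.00885 to 0.13. Averaged over genotypes Bak1 rose 1.59-fold (limma adjusted p = 0.00102).

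Of the BH3-only genes, Bid encodes the protein that links death receptors to mitochondria once caspase-8 has cut it. Its log2 signals were 4.73 and 4.66 in WT sham, 5.23 and 4.96 in WT MI, 4.42 and 4.66 in KO sham and 5.18 and 5.17 in KO MI, so all MI arrays were above all sham arrays. All of these signals were below the median gene's mean of 5.80. Bid rose 1.55-fold in KO (0.63, SE 0.14, limma adjusted p = 0.0113) and differed by 0.40 in WT (adjusted p = 0.0603). The KO call was lost without KO sham 1 (0.0521), KO MI 1 (0.0671) or KO MI 2 (0.066), over a range of 0.00764 to 0.0671. In WT, Bid passed the threshold without KO sham 1 (0.0404), KO sham 2 (0.0404) or WT MI 2 (0.0462), over a range of 0.0177 to 0.301. Averaged over genotypes Bid rose 1.43-fold (limma adjusted p = 0.00257).

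Pmaip1 encodes NOXA, a BH3-only partner of MCL1. Its log2 signals were 4.44 and 4.46 in WT sham, 5.03 and 4.71 in WT MI, 4.51 and 4.30 in KO sham and 4.92 and 4.99 in KO MI. MI and sham arrays did not overlap, although all signals were below the median gene's mean of 5.80. Pmaip1 rose 1.46-fold in KO (0.55, SE 0.14, limma adjusted p = 0.0223) and differed by 0.42 in WT (adjusted p = 0.0538). The KO call was lost without KO sham 2 (0.0927), KO MI 1 (0.0859) or KO MI 2 (0.128) and with all probe sets tested (0.0529), over a range of 0.0112 to 0.128. In WT it passed without KO sham 1 (0.0419), KO sham 2 (0.0419) or WT MI 2 (0.0311), over a range of 0.0136 to 0.254. Averaged over genotypes Pmaip1 rose 1.40-fold (limma adjusted p = 0.0031).

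Bcl2l11 encodes BIM, a BH3-only activator that binds all the main survival proteins, and it ran opposite to Bid and Pmaip1. Its log2 signals were 6.49 and 6.63 in WT sham, 6.24 and 6.37 in WT MI, 6.66 and 6.88 in KO sham and 6.24 and 6.17 in KO MI. All MI arrays were below all sham arrays, and KO sham 2 was the highest. Bcl2l11 fell by 0.57 in KO (SE 0.13, 1.48-fold, limma adjusted p = 0.013), and its difference in WT was -0.25 (adjusted p = 0.185). The KO call was lost without KO sham 2 (0.055), KO MI 1 (0.0582) or KO MI 2 (0.0914) and after median centring (0.0806), over a range of 0.0085 to 0.0914. Averaged over genotypes it fell by 0.41 (1.33-fold, limma adjusted p = 0.00922).

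Bbc3 encodes PUMA, a BH3-only protein best known as a p53 target. Its log2 signals were 5.33 and 5.33 in WT sham, 5.52 and 5.67 in WT MI, 5.35 and 5.23 in KO sham and 5.50 and 5.40 in KO MI. The MI arrays lay above the sham arrays by small margins, and all signals were below the median gene's mean of 5.80. The MI difference was 0.27 in WT (limma adjusted p = 0.145), 0.16 in KO (0.446) and 0.21 averaged over genotypes (0.0838). The averaged difference passed the threshold with array weights (0.0461) and without KO sham 1 (0.0433), over a range of 0.0433 to 0.195.

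Bnip3l encodes NIX, a receptor on mitochondria that recruits the autophagy machinery, and its signal was the flattest of the members. It had log2 signals of 11.96 and 11.88 in WT sham, 11.85 and 11.89 in WT MI, 11.80 and 11.91 in KO sham and 11.85 and 11.93 in KO MI, with all groups overlapping. The MI difference was -0.05 in WT (95% interval -0.32 to 0.21, limma adjusted p = 0.783) and 0.04 in KO (-0.23 to 0.30, adjusted p = 0.886). Its sign turned under some alternatives. Thus an MI difference in Bnip3l as large as that of Bak1 lay outside both intervals.

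**Figure D2:**
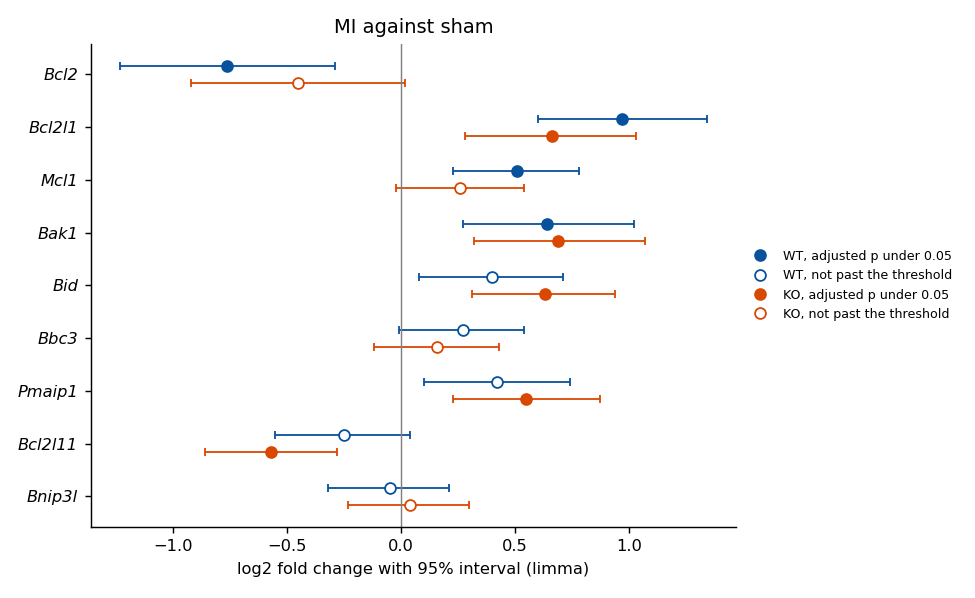
MI against sham for the 9 measured members, as log2 fold changes with 95% intervals from limma, in WT and in KO. Filled points passed the threshold: Bcl2l1 and Bak1 in both genotypes, Bcl2 and Mcl1 in WT, and Bid, Pmaip1 and Bcl2l11 in KO.

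In the averaged model, Bcl2l1, Mcl1, Bak1, Bid, Pmaip1 and Bcl2l11 passed the threshold under all 18 alternatives run. Some marker transcripts of several cell types passed the test after MI. Over all genes, 12.3% were called higher and 15.8% lower in WT, and 10.5% higher and 10.3% lower in KO. In lists this short, counts of 1 or 2 differ from those shares by few genes. The mean log2 signal of 8 neutrophil markers went from 3.87 to 4.09 on the sham arrays to 8.16 and 8.97 in WT MI and 7.22 and 7.58 in KO MI, and 8 of 8 rose in WT and 7 of 8 in KO. That of 8 monocyte and macrophage markers went from 6.51 to 6.90 on the sham arrays to 9.07 and 8.54 in WT MI and 8.65 and 8.62 in KO MI, and 6 rose in each genotype. The others were Adgre1 and Csf1r, whose MI and sham arrays overlapped. Group means of Adgre1 were 7.53 in WT sham, 7.58 in WT MI, 7.43 in KO sham and 7.74 in KO MI. Those of Csf1r were 8.22, 8.45, 8.30 and 8.42, in the same order. Of 9 cardiomyocyte markers 4 fell in WT and 2 in KO, and their mean was 13.19 to 13.30 on the sham arrays against 12.95 and 12.92 in WT MI and 13.07 and 13.06 in KO MI. Of 5 smooth muscle markers 4 fell in WT and 2 in KO, of 7 fibroblast markers 3 fell in WT (median -0.45) while 1 rose and 1 fell in KO, and of 6 endothelial markers 2 fell in WT and 3 in KO. With arrays left out the cardiomyocyte falls became 2 in WT without WT sham 1 or WT sham 2, and 0 in KO without WT sham 1, WT sham 2, KO sham 2, KO MI 1 or KO MI 2, and the smooth muscle falls in WT ran from 2 to 4 and the endothelial falls in KO from 0 to 3 over the alternatives. None of 7 lymphocyte markers passed in limma (2 had an unadjusted p under 0.05 in WT and 0 in KO). The part of these shifts in the members' differences was not tested.

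KO against WT asks what the loss of MAFbx altered in hearts of the same condition. In sham hearts no member passed in limma (0.0301% of all genes did, 0.00502% higher and 0.0251% lower, and 0 members had an unadjusted p under 0.05), and member differences ran from -0.15 for Bid to 0.35 for Bcl2. After MI no member passed either (0.0702% of all genes did, 0.0301% higher and 0.0401% lower), but Bcl2 and Bcl2l1 had an unadjusted p under 0.05. Averaged over conditions, no member passed (0.0552% of all genes did, 0.0251% higher and 0.0301% lower), and Bcl2 was the 1 member with an unadjusted p under 0.05. Markers of other cells differed on the same arrays, although none passed in limma. After MI all 8 neutrophil markers were lower in KO (median log2 difference -1.04, 7 with an unadjusted p under 0.05) and all 7 fibroblast markers higher (median 0.27, 3 with an unadjusted p under 0.05). In sham, 4 of 5 smooth muscle markers were lower in KO (median -1.05, 4 with an unadjusted p under 0.05). Their part in the members' differences was not tested.

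Bcl2 was higher on both KO arrays than on both WT arrays in either condition. In sham the KO arrays (9.36 and 8.87) lay above the WT arrays (8.80 and 8.73) by a log2 difference of 0.35 (95% interval -0.12 to 0.82, limma adjusted p = 1.0), and after MI (8.45 and 8.88 against 8.23 and 7.78) by 0.66 (0.19 to 1.13, adjusted p = 0.287). The averaged difference was 0.50 (0.17 to 0.84, adjusted p = 0.505). After the adjustment over all genes these differences did not pass the test. Bcl2l1 was lower on both KO MI arrays (7.52 and 7.32) than on both WT MI arrays (7.79 and 7.82), by a log2 difference of -0.39 (-0.76 to -0.01, adjusted p = 0.409), while in sham the arrays overlapped (-0.07, -0.45 to 0.30).

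For the other members after MI, KO minus WT was -0.02 for Mcl1 (95% interval -0.30 to 0.25), 0.11 for Bak1 (-0.27 to 0.49), 0.08 for Bid (-0.24 to 0.39), -0.15 for Bbc3 (-0.42 to 0.13), 0.09 for Pmaip1 (-0.23 to 0.40), -0.10 for Bcl2l11 (-0.39 to 0.19) and 0.02 for Bnip3l (-0.24 to 0.29). These intervals are about as wide as the MI differences of Bid and Pmaip1 in KO themselves, so equal levels are not shown. The difference of the MI responses (KO minus WT) passed the test for no gene (0% called, and 1637 genes had an unadjusted p under 0.05, none of them a member). It was 0.31 for Bcl2 (-0.36 to 0.98), -0.31 for Bcl2l1 (-0.84 to 0.21), -0.25 for Mcl1 (-0.64 to 0.14) and -0.31 for Bcl2l11 (-0.73 to 0.10). For Bak1, Bid, Bbc3, Pmaip1 and Bnip3l it lay between -0.11 and 0.23.

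**Figure D3:**
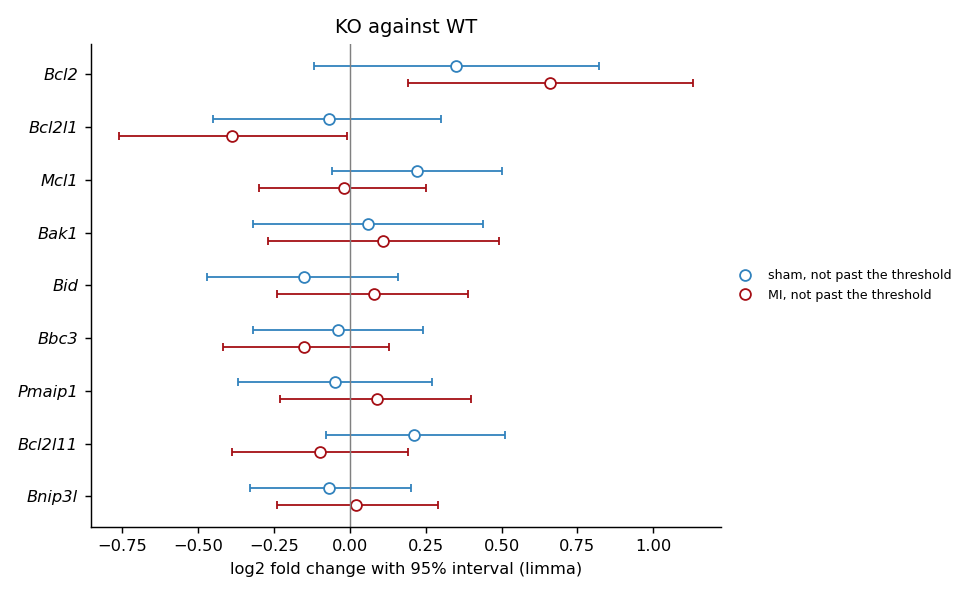
KO against WT for the 9 measured members, as log2 fold changes with 95% intervals from limma, in sham hearts and after MI. No point passed the threshold, and the intervals of Bcl2 (0.19 to 1.13) and Bcl2l1 (-0.76 to -0.01) after MI are the ones that leave out 0.

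Because pro-death and pro-survival proteins act by binding each other, the log2 signals of such pairs were also subtracted within each array. Only the change of such a difference between groups can be read, since probe sets of different genes have no common scale. Bak1 minus Mcl1 differed by 0.29 between MI and sham (0.14 in WT and 0.43 in KO, exact two-sided permutation p = 0.111, adjusted over 4 tests 0.444) and by -0.02 between KO and WT, with opposite signs in sham (-0.16) and after MI (0.13) (exact permutation p = 0.944, adjusted 0.944). Both KO sham arrays were below all other arrays for this pair, and the WT sham and WT MI ranges overlapped. Bcl2l11 minus Bcl2 was higher on both WT MI arrays than on both KO MI arrays, and the other ranges overlapped or lay close together. It differed by 0.19 between MI and sham (0.50 in WT and -0.12 in KO, exact permutation p = 0.556, adjusted 0.741) and by -0.45 between KO and WT (-0.14 in sham and -0.76 after MI, exact permutation p = 0.222, adjusted 0.444). None passed, and with 36 arrangements of the arrays within strata the smallest p possible was 0.0556.

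**Figure D4:**
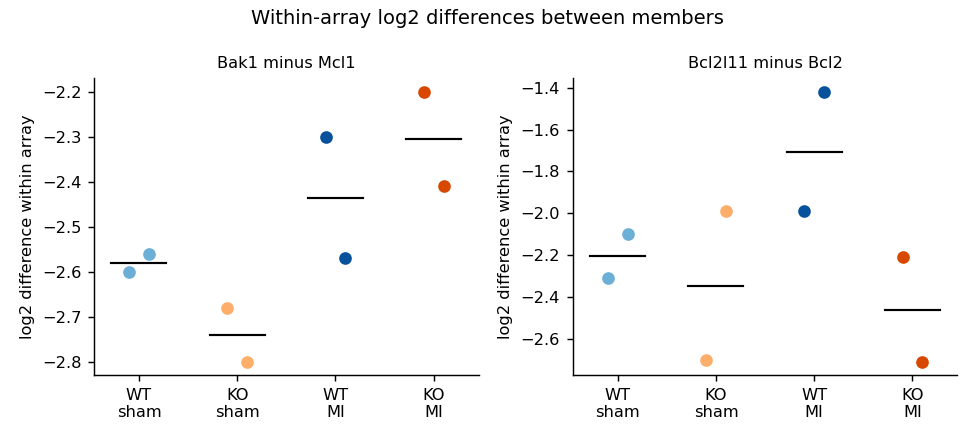
Within-array differences of log2 signals, Bak1 minus Mcl1 and Bcl2l11 minus Bcl2, on the 8 arrays by group, with points for arrays and bars for group means. The KO sham and KO MI ranges overlap for Bcl2l11 minus Bcl2, and the height of a panel depends on the probe sets, so only shifts between groups carry meaning.

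Of the other BCL2 family genes, 13 of 16 had a probe set of their own. In WT hearts 2 rose and none fell, where 12.3% of all genes were called higher and 15.8% lower. In KO hearts 1 rose and none fell, where 10.5% of all genes were called higher and 10.3% lower. The rises became 1 in WT without WT sham 1 or WT MI 2. The median log2 difference of the 13 was 0.15 in WT and -0.09 in KO. Bcl2a1c, of the A1 survival genes known from neutrophils and other leukocytes, had log2 signals of 3.51, 3.48, 3.47 and 3.77 on the sham arrays (WT, then KO), close to the low end of the arrays (3.05 at the 10th percentile of genes), and of 5.66 and 5.30 in WT MI and 5.47 and 4.52 in KO MI. It was low on all sham arrays and higher on all MI arrays. It rose by 1.98 on the log2 scale in WT (limma adjusted p = 0.000475) and by 1.37 in KO (adjusted p = 0.00553). The sham signals were not shown to be above background, so these values are at best lower bounds and no fold is given. The calls held under all 18 alternatives run. The mouse A1 genes are near-identical copies, and 3 probe sets shared among them were not used, so the copy measured is uncertain. Most of the neutrophil markers and of the monocyte and macrophage markers given above rose on the same arrays. Their part in the rise of Bcl2a1c was not tested.

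Bok, which encodes a BAX-like pore protein, had log2 signals of 6.23 and 6.61 in WT sham and 6.92 and 7.25 in WT MI, and of 6.54 and 6.32 in KO sham and 6.75 and 6.73 in KO MI. All MI arrays were above all sham arrays. Bok rose 1.58-fold in WT (0.66, limma adjusted p = 0.0151), and this call was lost without WT sham 1 (0.139) or WT MI 2 (0.111), over a range of 0.0102 to 0.139. In KO the difference was 0.31 (adjusted p = 0.252). Bnip3, the mitophagy receptor closest to Bnip3l, differed by 0.19 in WT (adjusted p = 0.327) and 0.39 in KO (adjusted p = 0.0621). Its KO MI arrays (11.41 and 11.54) were above all other arrays (10.76 to 11.12), and KO minus WT after MI was 0.41 (limma adjusted p = 0.287). A second probe set of Bnip3, not used in the tests, read 10.54 and 10.28 in KO MI and 10.15 and 10.26 in WT MI. On it KO MI 2 was about level with WT MI 2 and KO sham 1 (10.27), so the clear separation holds for 1 probe set. Bad, a BH3-only gene, had differences of 0.21 and 0.18, Hrk of 0.33 and -0.10, Bcl2l2 of -0.01 and 0.16, Bmf of -0.10 and -0.12, Bik of -0.02 and -0.29 and Bcl2l13 of -0.25 and -0.09 in WT and KO. For Bcl2l10, Bcl2l12, Bcl2l14 and Bcl2l15 the differences ran from 0.06 to 0.30 in WT and from -0.17 to 0.01 in KO, and none of these genes passed.

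**Figure D5:**
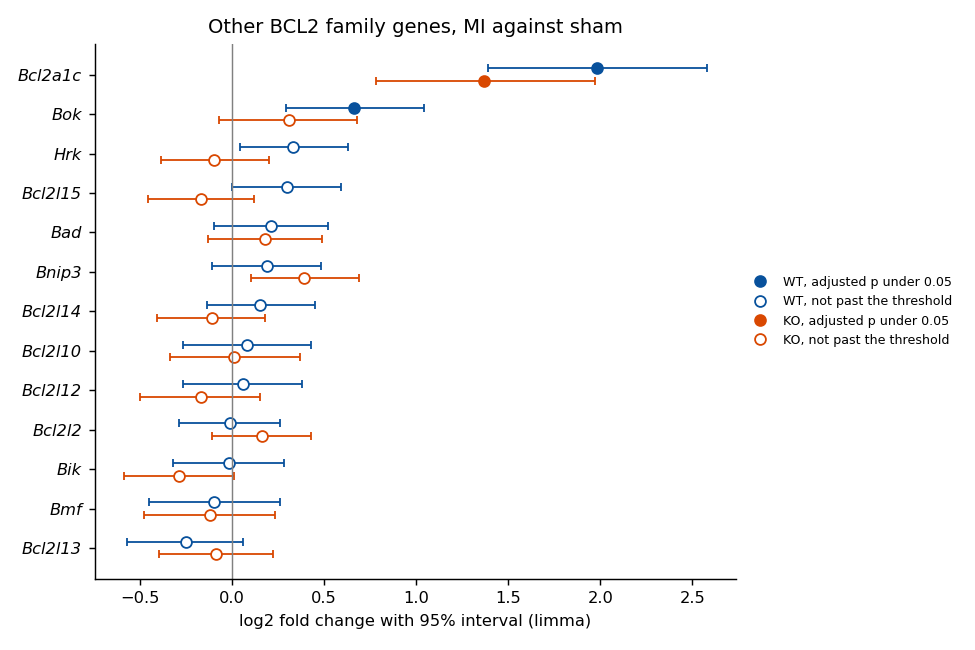
MI against sham for the 13 other BCL2 family genes with a probe set of their own, as log2 fold changes with 95% intervals from limma, in WT and in KO. Filled points passed the threshold: Bcl2a1c in both genotypes and Bok in WT.

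Upstream of the family stand the death receptors and their adaptors. They were listed together with the necroptosis genes Ripk3 and Mlkl, which are not upstream of the family. Of the 10 genes measured on that list 8 rose in WT and 6 in KO, and none fell. Over all genes, 12.3% were called higher in WT and 10.5% in KO (28.1% and 20.8% in either direction). The median log2 difference was 0.70 in WT and 0.57 in KO, beside 0.04 and 0.01 over all genes. Ripk3, the kinase of necroptosis, rose 3.55-fold in WT (1.83, limma adjusted p = 1.99e-05) and 2.57-fold in KO (adjusted p = 0.000186). Tnfrsf1a, the main TNF receptor, rose 2.47-fold and 1.95-fold, and Tnfrsf10b, the TRAIL receptor, 2.10-fold and 2.11-fold. Fas rose 1.88-fold in WT (limma adjusted p = 0.00394), while its difference in KO was 0.23 (adjusted p = 0.441). The calls named so far held under all 19 alternatives, but those of other genes did not. Over the alternatives the list's count of rises ran from 4 to 8 in WT and from 4 to 6 in KO, being 4 without WT sham 2 and 5 without WT MI 1 or after median centring in WT, and 4 without KO sham 1 in KO. Without KO sham 1, 1 gene fell in each genotype, and without KO sham 2, 1 fell in WT. In WT the calls of Tradd (adjusted p = 0.135), Casp8 (0.116), Cflar (0.0991) and Mlkl (0.163), signalling proteins below the receptors, were lost without WT sham 2. Of the called genes on the list, Tradd in WT passed under 8 of 19 alternatives, Cflar in KO under 7 and Mlkl in KO under 10. Most neutrophil, monocyte and macrophage markers rose on the same arrays, and their part in these rises was not tested.

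Downstream of the pore, 16 genes of cytochrome c release, the apoptosome, caspases and their inhibitors were measured. In WT 2 rose and 3 fell (median -0.24), and in KO 2 rose and none fell (median -0.11). Over all genes, 28.1% were called in WT and 20.8% in KO. The 3 falls became 0 without WT sham 1, WT sham 2 or WT MI 2 and ran from 0 to 4 over the alternatives, and the 2 rises in WT became 1 without WT sham 1, WT sham 2 or WT MI 1. In KO the rises became 1 without KO MI 1 and 0 without KO MI 2, and the falls 1 without KO sham 1, WT MI 1 or WT MI 2. Birc3, an inhibitor of apoptosis protein of TNF signalling, rose 1.87-fold in WT (0.91, limma adjusted p = 0.000517) and 1.46-fold in KO (0.55, adjusted p = 0.0116), the KO call being lost without KO MI 2 (0.0986, range 0.00725 to 0.0986). Apaf1, the scaffold of the apoptosome, rose 1.40-fold in WT (limma adjusted p = 0.0178) and 1.44-fold in KO (adjusted p = 0.0152). Its WT call was lost without WT sham 1 (0.0526), WT sham 2 (0.151) or WT MI 1 (0.0909, range 0.00695 to 0.151) and its KO call without KO MI 1 (0.0618) or KO MI 2 (0.105, range 0.0096 to 0.105). Aifm1, a flavoprotein of the intermembrane space, fell by 0.63 in WT (limma adjusted p = 0.0224), a call lost without WT sham 1 (0.0747), WT sham 2 (0.125) or WT MI 2 (0.13, range 0.00509 to 0.13). Casp2, a caspase activated outside the apoptosome, fell by 0.53 in WT (limma adjusted p = 0.016), a call lost without WT sham 1 (0.0778), WT sham 2 (0.0986) or WT MI 2 (0.11, range 0.00791 to 0.11). Casp6, the remaining call, fell by 0.61 in WT (limma adjusted p = 0.0385) and passed under 11 of 19 alternatives.

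Among 9 transcription factors known to act on family genes, 3 rose and 3 fell in WT, and 4 rose and 1 fell in KO. The shares called over all genes were 28.1% in WT and 20.8% in KO. The median difference was 0.19 in WT and 0.36 in KO. The fall in KO became 0 without KO MI 1 or after median centring, and 2 fell without KO sham 1. Atf4, of the integrated stress response, rose by 1.58 on the log2 scale in WT (limma adjusted p = 1.69e-05) and by 1.16 in KO (adjusted p = 0.000169). Stat3, which acts on Bcl2l1 and Mcl1, rose 2.07-fold and 1.81-fold (limma adjusted p = 0.000237 and 0.00118). Those calls held under all 19 alternatives. Foxo1, a FOXO factor known to act on Bcl2l11, fell by 0.79 in WT (limma adjusted p = 0.00165) and by 0.57 in KO (adjusted p = 0.0136), the KO call being lost without KO MI 1 (0.112) and after median centring, with a range of 0.00827 to 0.112. Hif1a rose 1.73-fold in WT (limma adjusted p = 0.00132) and 1.44-fold in KO (adjusted p = 0.0158), the KO call being lost without KO sham 1 (0.0543), KO MI 1 (0.103) or KO MI 2 (0.0651), with a range of 0.00307 to 0.103.

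Of 12 p53 target genes outside the family, 2 rose and 3 fell in WT and 3 rose and 3 fell in KO, with medians of -0.16 and 0.00, where 28.1% and 20.8% of all genes were called. The falls became 1 in WT without WT sham 1, and 1 in KO without WT sham 1, WT sham 2, KO sham 2, KO MI 1 or KO MI 2. The rises in KO became 2 without KO sham 2 and 1 without KO MI 1 or KO MI 2. Sesn2, a stress-responsive sestrin, rose 2.09-fold in WT (1.07, limma adjusted p = 0.000506) and 1.55-fold in KO (0.63, adjusted p = 0.013). The WT call of Sesn2 held under all 19 alternatives, and the KO call was lost without KO sham 2 (0.0618), KO MI 1 (0.0696) or KO MI 2 (0.0786, range 0.00831 to 0.0786). Sesn1, its paralog, fell by 0.67 in WT (limma adjusted p = 0.00247) and by 0.82 in KO (adjusted p = 0.00122), under all 19 alternatives in each. Eda2r, a TNF receptor family member, rose 2.20-fold in WT (limma adjusted p = 0.00551) under all 19 alternatives and 2.13-fold in KO (adjusted p = 0.00966), the latter lost without KO MI 1 (0.0564) or KO MI 2 (0.0624), with a range of 0.000713 to 0.0624. Ccng1, a cyclin, fell by 0.60 in WT (limma adjusted p = 0.00625), a call lost without WT sham 1 (0.055, range 0.000437 to 0.055). In KO it fell by 0.46 (limma adjusted p = 0.0294), a call that passed under 11 of 19 alternatives. Trp53 and Cdkn1a were not analysed here.

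Of 9 genes that modify or degrade BCL2 family proteins, 1 rose and 3 fell in WT and 1 rose and 2 fell in KO, with a median of -0.30 in each. Over all genes, 28.1% were called in WT and 20.8% in KO. The falls became 1 in WT without WT sham 1 or WT sham 2, and over the alternatives they ran from 1 to 6 in WT and from 0 to 5 in KO, being 0 in KO without KO sham 2 or KO MI 2 and 1 without WT sham 1, WT sham 2, WT MI 1, WT MI 2 or KO MI 1. Pim1, a kinase that phosphorylates BAD, rose 2.46-fold in WT (1.30, limma adjusted p = 0.00013) and 1.87-fold in KO (0.90, adjusted p = 0.00158), under all 19 alternatives. Fbxw7, an F-box protein that marks MCL1 for degradation, fell by 0.90 in WT (limma adjusted p = 0.00406), also under all 19. In KO Fbxw7 fell by 0.57 (limma adjusted p = 0.0468), a call that passed under 8 of 19 alternatives, with adjusted p from 0.00558 to 0.218. Btrc, another F-box protein, fell by 0.58 in WT (limma adjusted p = 0.00861), a call lost without WT sham 1 (0.0554) or WT sham 2 (0.0617, range 0.00348 to 0.0617). Mapk8, the kinase JNK1, fell by 0.45 in WT (limma adjusted p = 0.0314) and by 0.54 in KO (adjusted p = 0.0196), passing under 12 and 15 of 19 alternatives.

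Of 11 mitophagy genes, 1 rose and 2 fell in each genotype, with medians of -0.01 and 0.10. The shares called over all genes were 28.1% in WT and 20.8% in KO. Over the alternatives the rises ran from 0 to 4 in WT and from 0 to 3 in KO, being 0 in WT without WT sham 2 and 0 in KO without WT sham 1, WT sham 2, KO sham 1, KO MI 1 or KO MI 2, and 2 in WT without KO sham 1 or KO sham 2 and in KO without KO sham 2. The falls ran from 1 to 3 in WT, 1 without WT sham 1, and from 1 to 2 in KO, 1 without KO MI 1 or KO MI 2. Fundc1, a mitophagy receptor, fell by 0.96 in WT (limma adjusted p = 0.00031, under all 19 alternatives) and by 0.56 in KO (adjusted p = 0.00891), the KO call being lost without KO MI 2 (0.0686) and after median centring (range 0.00259 to 0.0743). Ulk1, the kinase that starts autophagy, fell by 0.63 in WT (limma adjusted p = 0.00798) and by 0.64 in KO (adjusted p = 0.00971), calls lost without WT sham 1 (0.0813) and KO MI 1 (0.0897). Sqstm1, the autophagy adaptor p62, rose by 0.59 in WT (limma adjusted p = 0.0118), lost without WT sham 2 (0.111) and after median centring, and by 0.48 in KO (adjusted p = 0.0375), passing under 8 of 19 alternatives.

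In the KO against WT comparisons no gene of these lists or of the other family genes passed in limma. At an unadjusted p under 0.05 there were between 0 and 1 genes per list in sham and between 0 and 3 after MI. After MI the gene with the smallest p in each list was Casp2 (KO minus WT 0.29, limma adjusted p = 0.439), Fas (-0.67, 0.214), Pim1 (-0.54, 0.207), Fundc1 (0.36, 0.297), Ddit3 (0.34, 0.337) and Phlda3 (0.37, 0.372).

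To show which genes ran most like each member, all genes were compared by the root mean square distance of their centred log2 profiles over the 8 arrays. The nearest gene was Arpc5l for Bcl2 (distance 0.153), Map11 for Bcl2l1 (0.066), Prdx1 for Mcl1 (0.057), Gpr176 for Bak1 (0.078) and Clcn5 for Bid (0.037). It was Wfdc15b for Bbc3 (0.018), Ube2j2 for Pmaip1 (0.052), Rc3h2 for Bcl2l11 (0.052) and Vmn1r22 for Bnip3l (0.03). The second nearest were C1qtnf2 (0.168), Snhg17 (0.087), Dnajc2 (0.06), Spred1 (0.086), Snx9 (0.051), Jph3 (0.031), Lipt1 (0.056), Shc3 (0.058) and Alox12e (0.031), in the same order. Bcl2 had the most distant neighbour of the members. The small distances of Bbc3 and Bnip3l go with flat profiles, since their SDs over the arrays were 0.132 and 0.047 against 0.447 for Bcl2 and 0.45 for Bcl2l1.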

How the data were processed

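RNA from 8 mouse heart samples was hybridised to Affymetrix Mouse Gene ST arrays. The deposited values are log2 signals per probe set, and per the submitters' processing notes the tools behind them were Affymetrix Expression Console and RMA. For versions, filters and the genome build, nothing is given in the sources used here. RMA corrects background, equalises the arrays' distributions and summarises probes, which can hide a shift common to all genes.

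Of 35556 probe sets, 21789 had 1 gene symbol in the platform annotation, 1621 had several and 12146 were not listed there. Probe sets with several or no symbols were not used. For 999 genes with more than 1 probe set, the one with the highest mean was kept, giving 19938 genes. Limma 3.58.1 in R 4.3.3 was fitted to the 4 groups without a block (4 residual degrees of freedom, 5.57 prior), and the averaged effects to an additive model, with Benjamini-Hochberg adjustment over all genes and a threshold of 0.05. The scripts were checked on simulated data. Pairs of members were compared by exact permutation within strata. The planned pairs with Bax could not be computed.

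The members and the gene lists were chosen with earlier results of these data known. The text names all members, all other family genes, up to 4 genes per list with the smallest p in WT MI against sham and 1 in KO against WT after MI, and the 2 nearest genes of each member. Casp6, Casp8, Cflar, Mlkl and Tradd were named after their values were seen. Alternatives in the limma fit were an intensity trend, a robust prior for the variances, array weights, the compared groups alone and a replicate block. The others were other probe set rules, removal of genes with the lowest signals, cyclic loess, median centring and arrays left out. Deviations of arrays with the same replicate number correlated between -0.19 and 0.16, so no pairing by number was seen over all genes. Such correlations can miss a batch that touches few genes or only some arrays. Replicate arrays correlated at 0.9909 to 0.9962 and array medians were 5.00 to 5.25. The upstream windows are RefSeq sequences, read without the transcribed bases.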

Additional observations from a re-analysis of the deposited data

How the results depend on the processing

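Of the alternative values computed for the members' log2 differences, 1070 kept their direction and their side of the threshold, 35 lost a call, 14 gained one and 51 turned sign, none of the last past the threshold. Many of the 1070 kept their direction by construction. A setting that alters only the variance estimate or the set of genes tested leaves the log2 difference as it was. The same holds when an array outside the compared groups is left out of the 4-group fit. Comparisons between genotypes and of the MI responses had no member call to lose. The 1070 thus overstate stability. Of the alternative values for the other list genes called after MI, an addition made after seeing the data, 966 kept their call and 153 lost it. The ranges of the counts per gene list were added after seeing the data too. Apart from fewer arrays or more probe sets tested by construction, the cause was not tested. Arrays were left out singly and, as a pair with a shared shift, KO sham 1 with WT MI 2. In WT MI against sham, the 3 members higher became 5 with array weights or without the genes of lowest signal and 1 after median centring, and ran from 1 to 5 with arrays left out. The 1 member lower became 0 with all probe sets tested or after cyclic loess, and ran from 0 to 1. In KO MI against sham, the 4 members higher became 1 with all probe sets tested and ran from 0 to 4, and the 1 lower became 0 after median centring and ran from 0 to 1. Averaged over genotypes, the members lower ran from 1 to 2. Over all genes, with arrays left out, the genes called ran from 3457 to 6483 for MI in WT (5609 with all arrays), from 2246 to 4511 for MI in KO (4142), from 3 to 34 for KO against WT in sham (6), from 2 to 11 after MI (14), from 0 to 3 for the difference of the MI responses (0) and from 2 to 9 for KO against WT averaged (11). KO against WT in sham gave 12 genes with an intensity trend, 1 with all probe sets tested, 13 after median centring and 3 with the compared groups alone. KO against WT after MI gave 63 with an intensity trend, 26 with array weights, 23 without the genes of lowest signal, 0 with all probe sets tested and 2 with the compared groups alone. The difference of the MI responses gave 4 with an intensity trend and 1 after cyclic loess, and KO against WT averaged gave 1 with all probe sets tested and 3 after median centring. Median centring moved the share of rising genes among the calls from 43.8% to 33.6% in WT MI and from 50.7% to 62.3% in KO MI. With the replicate number as a block, called genes were 5248 for MI in WT, 3811 for MI in KO, 7 for KO against WT in sham, 5 after MI and 3 averaged, and no count of members changed. A block with the KO sham numbers crossed, chosen after seeing the data, called 4 members higher, 1 lower and 4385 genes for MI in KO.

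Sign changes were among differences that had not passed. With arrays left out, MI against sham ran from -0.02 to 0.09 for Bnip3l in KO and from -0.05 to 0.02 averaged over genotypes, where it read 0.00 with the mean of probe sets and 0.08 after cyclic loess. In WT it read 0.09 after cyclic loess, against -0.09 to -0.01 with arrays left out. KO against WT in sham ran from -0.32 to 0.18 for Bcl2l1, from -0.02 to 0.14 for Bak1 (-0.03 after median centring), from -0.10 to 0.02 for Bbc3 and from -0.15 to 0.05 for Pmaip1. After MI it ran from -0.12 to 0.07 for Mcl1 (0.05 after median centring), from -0.12 to 0.33 for Bak1, from -0.06 to 0.21 for Bid, from -0.07 to 0.24 for Pmaip1 and from -0.02 to 0.06 for Bnip3l (-0.03 after cyclic loess). The difference of the MI responses ran from -0.18 to 0.28 for Bak1 (-0.06 after cyclic loess), from -0.03 to 0.37 for Bid, from -0.19 to 0.03 for Bbc3 (0.05 after median centring), from -0.03 to 0.29 for Pmaip1 and from 0.03 to 0.14 for Bnip3l (-0.02 after cyclic loess). KO against WT averaged ran from -0.07 to 0.17 for Bak1, from -0.11 to 0.04 for Bid, from -0.11 to 0.07 for Pmaip1 (-0.04 with array weights), from -0.02 to 0.14 for Bcl2l11 and from -0.05 to 0.01 for Bnip3l. The pair Bak1 minus Mcl1 (KO minus WT) ran from -0.12 to 0.05, and Bcl2l11 minus Bcl2 (MI minus sham) from -0.13 to 0.37. A group left with 1 array was assumed to vary like the other groups.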
